A study of Homo sapiens with 8 samples.

Results

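The platelet-derived growth factor (PDGF) family consists of the receptor genes PDGFRA and PDGFRB and the ligand genes PDGFA, PDGFB, PDGFC and PDGFD. These 6 genes were selected on their symbols, out of 58336 identifiers in a gene count table of human SUM159 cells, a triple-negative breast cancer line. The family was chosen with earlier results of these data known, the high PDGFRA level of lung-recovered cells among them. Levels, fold changes and calls of the 6 genes are therefore given as a description, with no p-value.

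The table holds 8 RNA-seq libraries in 3 groups. The ITGB4-high group (n = 2) is Sum159 of genotype ITGB4 high grown in petri dishes, where ITGB4 encodes the integrin beta 4 subunit. The ITGB4-low group (n = 3) is Sum159 ITGB4 low clone 1, also from dishes. The lung-recovered group (n = 3) is the same clone after injection into the tail vein of mice that received bleomycin, a lung-injuring drug, through the trachea. The sources used here state no mouse strain, age or time in the lung. The lungs were dissociated, the suspension stayed in dishes overnight, and tdTomato-positive tumour cells were sorted before RNA extraction. The labels state a medium of Ham's F-12 with 5% inactivated fetal bovine serum, insulin and hydrocortisone for the cells from lungs. No medium is stated separately for the dish-grown groups, so whether all groups shared it is not known. Since 1 clone gave all ITGB4-low and lung-recovered libraries, what is particular to that clone and what goes with low ITGB4 cannot be told apart. With no recovered cells from untreated lungs in the table, the lung stay, bleomycin, dissociation, overnight culture and sorting cannot be told apart either. The same holds for any difference in medium. Replicates are labelled as biological, but no culture or animal is named for any of them, so errors and p-values measure the spread between these libraries, which may be technical.

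PDGF ligands are secreted dimers that bind receptor tyrosine kinases on the cell surface. PDGF-A and PDGF-C chains act mainly through PDGFR alpha, PDGF-B binds both receptors, and PDGF-D binds mainly PDGFR beta. Receptor dimers phosphorylate each other and recruit SRC family kinases, PI3-kinase, phospholipase C gamma, SHP2 and adaptors, and a first wave of transcription follows. In tissue the receptors mark mesenchymal cells such as fibroblasts and pericytes, and epithelial tumours are better known as sources of the ligands.

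Library totals ran from 20413724 to 27218800 counts, and 15220 genes passed the filter on low counts, 5 of the 6 PDGF genes among them. ITGB4 stood at 376 to 420 CPM (the count scaled to the library total, with TMM factors) in ITGB4-high libraries and at 5.29 to 9.13 CPM in ITGB4-low libraries. The lung-recovered libraries, whose genotype label is ITGB4 low, read 376 to 407 CPM. VIM, a mesenchymal marker of this line, was at 4261 to 5024 CPM in all 8 libraries, and the epithelial marker EPCAM had 0 to 3 counts. The basal keratin KRT5 stood at 1.40 and 1.68 CPM in ITGB4-high, 0.0971 to 0.328 CPM in ITGB4-low and 39.5 to 46.9 CPM in lung-recovered libraries.

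The sequences around the receptor gene starts are shown because the 2 receptors moved differently between the groups. They come from RefSeq windows on GRCh38.p14 covering the 250 bases before a start, which were found for 4 of the 6 members. Both strands were searched for 5 motifs, and matches are in capitals. The CCAAT box was searched by its own letters and the GC box as GGGCGG. The AP-1 motif was searched as TGANTCA and the STAT motif as TTCNNNGAA, where N is any base. The AP-1 match shown has A at N, so it matches this loose pattern and is not a known AP-1 site. An E-box was searched as CACCTG. No motif overlapped another in the sequences shown. PDGFRA has 2 such starts. The downstream one, chr4:54233710-54233959 on the plus strand, lies inside the gene and overlaps no annotated exon. For PDGFRB the part before the first annotated exon, chr5:150155873-150156095 on the minus strand, is printed. The short site, chr4:54229254-54229274 on the plus strand, lies inside the annotated first exon at the upstream PDGFRA start.
PDGFRA downstream start: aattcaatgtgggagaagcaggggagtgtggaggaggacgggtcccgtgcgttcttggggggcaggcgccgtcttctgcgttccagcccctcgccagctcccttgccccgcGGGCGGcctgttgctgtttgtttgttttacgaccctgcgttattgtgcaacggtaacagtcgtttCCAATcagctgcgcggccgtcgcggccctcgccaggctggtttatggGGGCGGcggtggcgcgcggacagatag
PDGFRB start: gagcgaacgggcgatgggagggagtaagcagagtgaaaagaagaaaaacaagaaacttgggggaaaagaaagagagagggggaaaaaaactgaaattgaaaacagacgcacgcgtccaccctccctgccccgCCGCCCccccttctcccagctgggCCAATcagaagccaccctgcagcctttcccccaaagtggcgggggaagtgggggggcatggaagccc
PDGFRA upstream start, AP-1 match: ataacatTGAATCAattacaa

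The PDGFRA downstream start had a CCAAT box from 74 to 70 bases before the start and GC boxes from 139 to 134 and from 27 to 22 bases before it. The PDGFRB window had a CCAAT box from 94 to 90 bases and a GC box on the other strand from 118 to 113 bases before the start. The upstream PDGFRA start had the match to the loose AP-1 pattern, TGAATCA, from 32 to 26 bases before it and no match to the other 4 motifs. Among 35116 windows of the same length, 32% held a CCAAT box, 42.6% a GC box, 6.57% the loose AP-1 pattern, 17.5% the E-box and 6.57% the STAT motif. These matches describe letters only; counts per gene do not tell which start was used.

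PDGFRA (ENSG00000134853, chromosome 4, 54229097 to 54298247 in hg38, plus strand) encodes PDGFR alpha. It stood at 10.4 and 8.30 CPM in the ITGB4-high libraries. The ITGB4-low libraries had 3.35, 3.70 and 3.46 CPM. The lung-recovered libraries had 37.2, 35.5 and 36.7 CPM. No 2 groups overlapped, and lung-recovered cells were the highest and ITGB4-low cells the lowest. The lung-recovered mean of 36.5 ± 0.908 CPM (SD, n = 3) was 10.4 times the ITGB4-low mean of 3.51 ± 0.181 (n = 3), a log2 difference of 3.38 (SE 0.10). It was 3.89 times the ITGB4-high mean of 9.37 ± 1.52 (n = 2), a log2 difference of 1.96 (SE 0.09). ITGB4-low cells were lower than ITGB4-high cells by a log2 difference of -1.42 (SE 0.12). In bulk RNA, fewer cells with a transcript and less of it per cell cannot be told apart. A readthrough gene, AC058822.1, shares 1533 of the 9732 exon bases of PDGFRA on the same strand and was at 0 counts in all 8 libraries. How reads in these shared bases were assigned is not known, so the 0 counts do not tell whether that gene is transcribed.

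PDGFRB (ENSG00000113721, chromosome 5, 150113837 to 150155872, minus strand) encodes PDGFR beta. It was at 3.13 and 3.04 CPM in ITGB4-high libraries. ITGB4-low libraries had 11.9, 14.9 and 14.4 CPM. Lung-recovered libraries had 10.5, 11.3 and 10.4 CPM. The ITGB4-high group lay far below the others, and the lung-recovered group lay below the ITGB4-low group with a small gap. The means were 3.09 ± 0.0646, 13.8 ± 1.62 and 10.7 ± 0.484 CPM. The log2 difference was 2.16 (SE 0.13) for ITGB4-low minus ITGB4-high, -0.37 (SE 0.10) for lung-recovered minus ITGB4-low and 1.79 (SE 0.14) for lung-recovered minus ITGB4-high. Unlike PDGFRA, PDGFRB was thus highest in the dish-grown ITGB4-low clone.

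**Figure D1:**
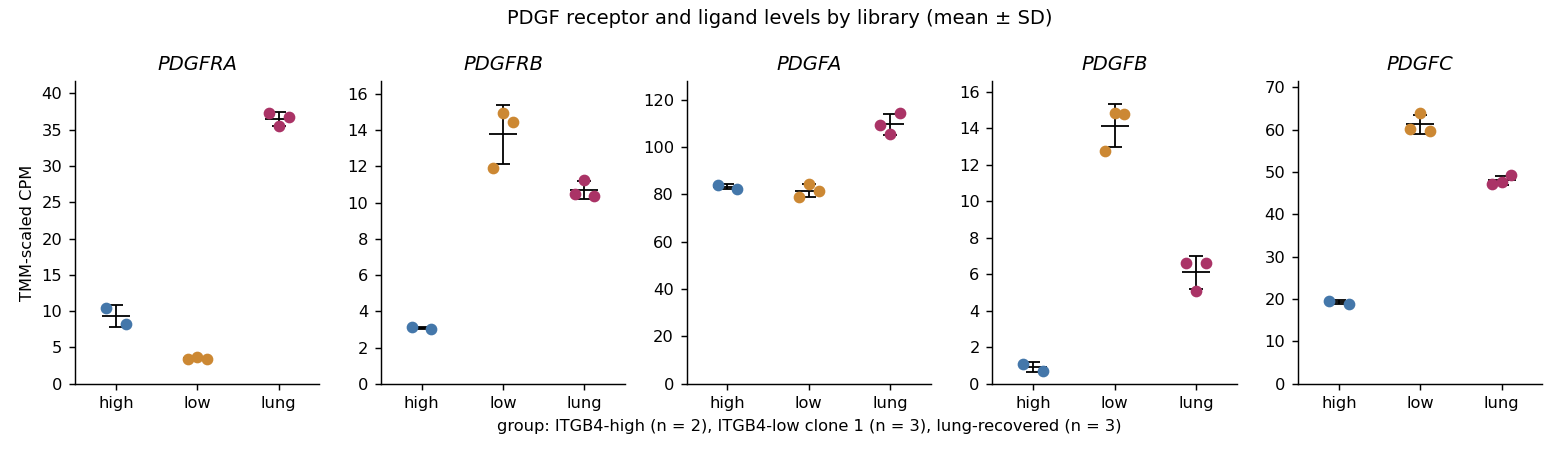
TMM-scaled CPM (y axis, linear, from 0) of 5 PDGF genes in each library (points) of the 3 groups (x axis), with the group mean and SD in black. PDGFRA is highest in lung-recovered libraries at 35.5 to 37.2 CPM, whereas PDGFRB, PDGFB and PDGFC are highest in ITGB4-low libraries; PDGFD, at 0 counts in all 8 libraries, is not drawn.

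PDGFA (ENSG00000197461, chromosome 7, 497258 to 520296, minus strand) encodes the PDGF-A chain. ITGB4-high libraries had 83.9 and 82.4 CPM. ITGB4-low libraries had 79.0, 84.5 and 81.2 CPM. Lung-recovered libraries had 109, 105 and 114 CPM. The dish-grown groups overlapped, and the lung-recovered libraries lay above both. The log2 difference was -0.03 (SE 0.05) for ITGB4-low minus ITGB4-high, 0.42 (SE 0.05) for lung-recovered minus ITGB4-low and 0.40 (SE 0.05) for lung-recovered minus ITGB4-high. The lung-recovered mean of 109 ± 4.44 CPM was 1.34 times the ITGB4-low mean of 81.6 ± 2.78.

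PDGFB (ENSG00000100311, chromosome 22, 39223359 to 39244751, minus strand) encodes the PDGF-B chain, the ligand that recruits pericytes to vessels. It was at 1.09 and 0.701 CPM in ITGB4-high libraries, from 29 and 18 counts. ITGB4-low libraries had 12.8, 14.8 and 14.8 CPM. Lung-recovered libraries had 6.64, 5.06 and 6.62 CPM. The 3 groups did not overlap, and lung-recovered libraries lay between the dish-grown groups. The ITGB4-low mean of 14.1 ± 1.18 CPM was 15.7 times the ITGB4-high mean of 0.898 ± 0.278, a log2 difference of 3.97 (SE 0.19). Lung-recovered minus ITGB4-low was -1.20 (SE 0.12) and lung-recovered minus ITGB4-high was 2.76 (SE 0.21) on the log2 scale. The antisense gene AL031590.1, which overlaps PDGFB on the other strand, had 0 to 2 counts per library.

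PDGFC (ENSG00000145431, chromosome 4, 156760454 to 156971394, minus strand) encodes PDGF-C, which is secreted in a latent form and must be cut by a protease to bind its receptor. ITGB4-high libraries had 19.5 and 18.9 CPM. ITGB4-low libraries had 60.2, 63.8 and 59.8 CPM. Lung-recovered libraries had 47.1, 47.8 and 49.3 CPM. The order of the groups was that of PDGFRB and PDGFB, again with no overlap. The log2 difference was 1.67 (SE 0.06) for ITGB4-low minus ITGB4-high, -0.35 (SE 0.05) for lung-recovered minus ITGB4-low and 1.32 (SE 0.06) for lung-recovered minus ITGB4-high.

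PDGFD (ENSG00000170962, chromosome 11, 103907186 to 104164379, minus strand) encodes PDGF-D, the other latent ligand. It had 0 counts in all 8 libraries, which allows a level of up to 0.113 to 0.146 CPM per library (3 counts, covering counting error only). The filter on low counts removed it, and no fold change was computed.

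Among the 5 members tested, 4 passed an adjusted p of 0.05 in ITGB4-low against ITGB4-high cells, 3 higher and 1 lower. Of all 15220 genes, 56.2% passed there, 28.6% higher and 27.6% lower. In lung-recovered against ITGB4-low cells 5 of 5 passed, 2 higher (PDGFRA and PDGFA) and 3 lower (PDGFRB, PDGFB and PDGFC). The background was 30.1%, with 14.7% higher and 15.4% lower. In lung-recovered against ITGB4-high cells 5 of 5 passed, all higher, against a background of 51.2%, 26.2% higher and 25.0% lower. Since the family was chosen with these contrasts known, nothing is read from the counts. The comparisons share libraries, so their values stand side by side and are not independent of each other.

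**Figure D2:**
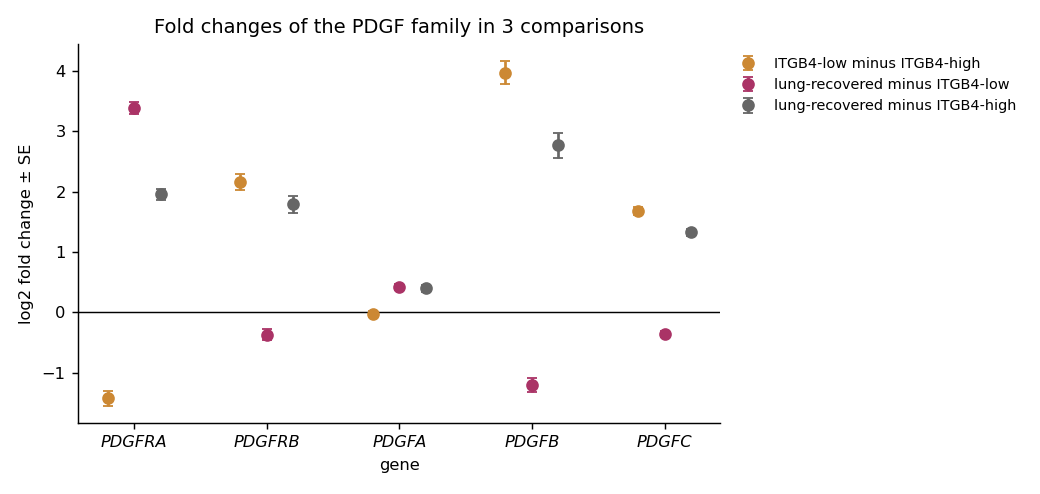
Log2 fold change (y axis) with SE bars of 5 PDGF genes (x axis) in the 3 comparisons, marked by colour. PDGFRA is at -1.42 in ITGB4-low minus ITGB4-high and at 3.38 in lung-recovered minus ITGB4-low cells, whereas PDGFRB, PDGFB and PDGFC are above 0 in the former and below 0 in the latter.

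Levels were compared between genes only per kilobase of annotated exon (CPM per kb), which assumes that every annotated exon is transcribed. In ITGB4-high cells the order was PDGFA at 20.0 ± 0.257, PDGFC at 3.43 ± 0.0858, PDGFRA at 0.963 ± 0.156, PDGFRB at 0.432 ± 0.00905 and PDGFB at 0.239 ± 0.0738 CPM per kb (SD, n = 2). In ITGB4-low cells it was PDGFA at 19.7 ± 0.670, PDGFC at 11.0 ± 0.395, PDGFB at 3.76 ± 0.313, PDGFRB at 1.93 ± 0.227 and PDGFRA at 0.360 ± 0.0186 CPM per kb (SD, n = 3). PDGFRA thus ranked above PDGFRB in the one group and last of the 5 in the other. In lung-recovered cells it was PDGFA at 26.4 ± 1.07, PDGFC at 8.59 ± 0.201, PDGFRA at 3.75 ± 0.0933, PDGFB at 1.62 ± 0.241 and PDGFRB at 1.50 ± 0.0677 CPM per kb (SD, n = 3). In that group PDGFB and PDGFRB overlapped between libraries; no other neighbours in these orders did.

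The ratio of PDGFRA to PDGFRB per kb was 2.45 and 2.00 in the ITGB4-high libraries. It was 0.207, 0.182 and 0.176 in the ITGB4-low libraries and 2.61, 2.31 and 2.60 in the lung-recovered libraries. PDGFRA was thus the more abundant receptor transcript in ITGB4-high and lung-recovered cells and PDGFRB in ITGB4-low cells. The ratios of ITGB4-high and lung-recovered libraries overlapped, but the totals did not: the receptor sum was 1.28 to 1.51 CPM per kb in the former, 2.01 to 2.47 in ITGB4-low and 5.22 to 5.29 in lung-recovered libraries.

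PDGFA made up 84.2% and 84.8% of the ligand total per kb in ITGB4-high libraries, 57.0% to 57.3% in ITGB4-low libraries and 72.0% to 72.2% in lung-recovered libraries. PDGFC took 14.4% to 14.6%, 31.3% to 32.4% and 23.1% to 24.2%. PDGFB took 0.797% to 1.21%, 10.2% to 11.5% and 3.82% to 4.84%. The ligand sum ran from 23.4 to 24.0 CPM per kb in ITGB4-high, from 33.2 to 35.7 in ITGB4-low and from 35.2 to 38.1 in lung-recovered libraries. The latter ranges overlapped, so ITGB4-low and lung-recovered cells differed in the makeup of the ligand pool more clearly than in its size.

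**Figure D3:**
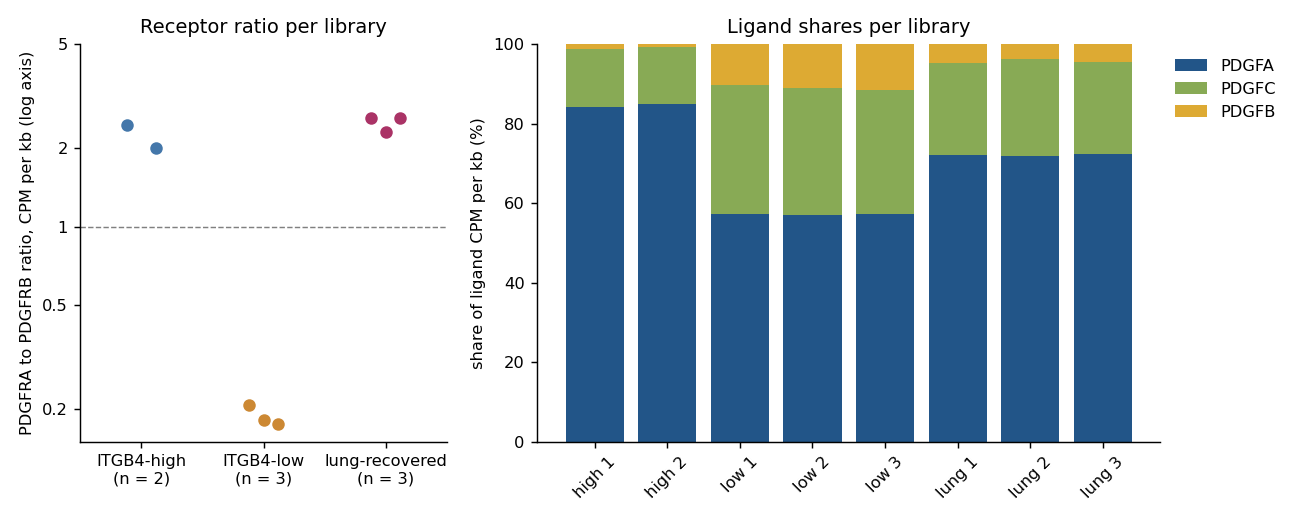
Left, ratio of PDGFRA to PDGFRB in CPM per kb (log axis; dashed line at 1) in each library of the 3 groups. Right, share of each ligand in the summed ligand CPM per kb (%) of each library; PDGFD is 0 throughout. The ratio is below 1 only in the 3 ITGB4-low libraries, which also have the largest PDGFB and PDGFC shares.

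Genes around the receptors were read from 5 lists by role, with adjusted p-values over all 15220 genes from edgeR's quasi-likelihood test. The lists, too, were chosen with earlier results of these data known, and their genes were mostly named by size of change. Their calls and adjusted p-values are therefore a description and no test of a list. The median log2 fold change of all tested genes was 0.00, 0.00 and 0.01 in ITGB4-low against ITGB4-high, lung-recovered against ITGB4-low and lung-recovered against ITGB4-high cells. In the same order 56.2%, 30.1% and 51.2% of all tested genes passed. The shares higher were 28.6%, 14.7% and 26.2%, and those lower 27.6%, 15.4% and 25.0%. Counts in the lists below are to be read beside these shares.

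Of the ligand processing and co-receptor genes, 11 of 13 were tested. In ITGB4-low against ITGB4-high cells 7 rose and 3 fell, with a median log2 fold change of 0.60. NRP2, a neuropilin co-receptor, rose from 22.2 ± 1.05 to 106 ± 6.51 CPM (log2 2.26, SE 0.06, adjusted p = 3.42e-16). ITGB3, the integrin beta 3 subunit that cooperates with PDGFR beta, rose from 4.28 ± 0.877 to 24.0 ± 0.816 CPM (log2 2.48, SE 0.12, adjusted p = 9.37e-13). PCSK6, a proprotein convertase, fell from 34.3 ± 1.38 to 21.0 ± 0.962 CPM (log2 -0.71, SE 0.07, adjusted p = 3.52e-08). PLAU, the urokinase gene whose product can cut PDGF-D, fell from 3.85 ± 0.116 to 0.120 ± 0.0260 CPM (adjusted p = 1.29e-10). The latter lies near the level of 3 counts, 0.121 to 0.146 CPM in ITGB4-low libraries.

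In lung-recovered against ITGB4-low cells 4 of these genes rose and 6 fell (median -0.27). FURIN, which cuts the PDGF-A and PDGF-B precursors, rose by 0.37 (SE 0.04) on the log2 scale, PCSK6 by 0.52 (SE 0.06) and PLAT, the tissue plasminogen activator that cuts PDGF-C, by 0.32 (SE 0.04), with adjusted p = 2.29e-06, 2.74e-06 and 2.73e-06. PLAU rose from its low level near 3 counts, 0.120 ± 0.0260 CPM, to 1.62 ± 0.271 CPM (adjusted p = 1.32e-07). LRP1, a PDGFR beta partner, fell from 89.5 ± 1.76 to 28.8 ± 2.39 CPM (log2 -1.64, SE 0.06, adjusted p = 1.99e-14). ITGB3 fell to 12.8 ± 1.27 CPM (log2 -0.91, SE 0.09, adjusted p = 1.19e-07). NRP1, NRP2 and CSPG4 fell by 0.27 each on the log2 scale, and PCSK7, another proprotein convertase, by 0.30. FURIN, PLAT, NRP1 and PCSK7 were named after their values were seen. Against ITGB4-high cells 6 rose and 2 fell (median 0.19), with NRP2 (log2 1.99, SE 0.06, adjusted p = 3.76e-15) and CSPG4, the NG2 proteoglycan of pericytes (log2 1.91, SE 0.06, adjusted p = 2.07e-15), showing the largest rises. PLAU (log2 -1.24, SE 0.20, adjusted p = 3.28e-05) and PCSK6 (log2 -0.19, SE 0.07, adjusted p = 0.0208) were lower, and the PCSK6 call was lost in 2 of the alternatives, without ITGB4-high replicate 2 and without lung-recovered replicate 1, with adjusted p up to 0.136.

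Of the receptor-proximal signalling genes, 19 of 20 were tested. In ITGB4-low against ITGB4-high cells 3 rose and 11 fell (median -0.14). SRC fell by 0.62 on the log2 scale (SE 0.06, adjusted p = 2.19e-08) and STAT5B by 0.52 (SE 0.06, adjusted p = 1.79e-07). FYN, another SRC family kinase, rose by 0.82 (SE 0.06, adjusted p = 9.19e-10), and the adaptor CRK by 0.54 (SE 0.05, adjusted p = 1.89e-08). In lung-recovered against ITGB4-low cells 4 rose and 4 fell (median 0.04); without lung-recovered replicate 1 the total of 8 became 5. STAT5A, a transcription factor phosphorylated downstream of several receptors, rose from 0.333 ± 0.158 to 14.9 ± 1.26 CPM (log2 5.48, SE 0.21, adjusted p = 1.07e-13). It was at 0.591 ± 0.285 CPM in ITGB4-high cells. YES1 rose by 0.20 (SE 0.04, adjusted p = 0.00136), and PIK3CA, the catalytic subunit of PI3-kinase, fell by 0.20 (SE 0.05, adjusted p = 0.00562). GAB1 had a log2 fold change of -0.25 (SE 0.09, adjusted p = 0.0417), and its call was lost in 7 of the 16 alternatives, with adjusted p up to 0.197. In lung-recovered against ITGB4-high cells 4 rose and 9 fell (median -0.14), with STAT5A (log2 4.64, SE 0.22, adjusted p = 9.58e-13) and CRK (log2 0.71, SE 0.05, adjusted p = 4.10e-10) up. SRC (log2 -0.72, SE 0.06, adjusted p = 3.45e-09) and PTPN11, which encodes SHP2 (log2 -0.43, SE 0.04, adjusted p = 1.48e-07), were down.

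All 15 genes that restrain the receptors or their signal were tested. In ITGB4-low against ITGB4-high cells 8 rose and 3 fell (median 0.20). CBL, a ubiquitin ligase that sends activated receptors to degradation, rose from 111 ± 1.83 to 223 ± 22.2 CPM (log2 1.01, SE 0.06, adjusted p = 7.27e-11). ERRFI1, better known as an inhibitor of EGFR, rose by 0.65 (SE 0.05, adjusted p = 3.99e-09). SPRY4, a feedback inhibitor of the RAS pathway, fell by 0.60 (SE 0.07, adjusted p = 3.86e-07) and GRB10 by 0.21 (SE 0.05, adjusted p = 0.000807). In lung-recovered against ITGB4-low cells 6 rose and 3 fell (median 0.14), and the total of 9 became 5 without ITGB4-low replicate 3. SPRY4 rose by 0.62 (SE 0.06, adjusted p = 2.19e-07), back to 292 ± 6.80 CPM against 289 ± 14.1 in ITGB4-high cells, and ERRFI1 by 0.33 (SE 0.05, adjusted p = 1.45e-05). CBL fell by 0.26 (SE 0.06, adjusted p = 0.00111). CBLB had a log2 fold change of -0.15 (SE 0.05, adjusted p = 0.0338), a call lost in 6 of the 16 alternatives, with adjusted p up to 0.146. In lung-recovered against ITGB4-high cells 7 rose and the other 8 did not pass (median 0.22), led by ERRFI1 (log2 0.98, SE 0.05, adjusted p = 1.26e-11) and CBL (log2 0.75, SE 0.06, adjusted p = 8.44e-09).

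Of the early-response genes that PDGF induces in fibroblasts, 14 of 17 were tested. Between the dish-grown groups 9 fell, 1 rose and 4 did not pass in ITGB4-low cells (median -0.34). JUNB fell from 146 ± 1.61 to 67.5 ± 3.77 CPM (log2 -1.11, SE 0.05, adjusted p = 7.87e-13) and FOSB from 3.20 ± 0.263 to 1.41 ± 0.335 CPM (log2 -1.18, SE 0.23, adjusted p = 0.000184). THBS1, thrombospondin 1, was the 1 that rose (log2 1.14, SE 0.08, adjusted p = 3.93e-10). In lung-recovered against ITGB4-low cells 10 rose, 1 fell and 3 did not pass (median 0.57). EGR1 rose from 18.9 ± 6.21 to 47.4 ± 6.35 CPM (log2 1.33, SE 0.14, adjusted p = 4.28e-07) and JUNB to 138 ± 4.99 CPM (log2 1.04, SE 0.05, adjusted p = 1.88e-12). THBS1 fell from 885 ± 52.2 to 325 ± 34.2 CPM (log2 -1.45, SE 0.07, adjusted p = 4.41e-12). Dissociation, overnight culture and sorting went together with the lung stay, and their parts in this result cannot be told apart.

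In lung-recovered against ITGB4-high cells 5 early-response genes rose and 4 fell (median 0.08), and the total of 9 became 5 without ITGB4-high replicate 1. MYC fell by 0.44 (SE 0.05, adjusted p = 2.02e-07) and IER3 rose by 0.41 (SE 0.07, adjusted p = 3.68e-05). EGR1 had a log2 fold change of 0.46 (SE 0.15, adjusted p = 0.0135), lost in 3 of the alternatives with adjusted p up to 0.221. THBS1 had -0.31 (SE 0.08, adjusted p = 0.00265), lost without ITGB4-high replicate 1 (adjusted p = 0.137).

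Of the related class III and VEGF receptors and their ligands, 9 of 15 were tested. KIT and FLT3, the closest relatives of the PDGF receptors in this list along with CSF1R, had 0 counts in all libraries. In ITGB4-low against ITGB4-high cells 3 rose and 2 fell (median 0.24). KITLG, the ligand of KIT, rose from 3.95 ± 0.0366 to 18.5 ± 0.695 CPM (log2 2.23, SE 0.12, adjusted p = 3.48e-12) and VEGFC from 4.40 ± 0.332 to 13.2 ± 1.51 CPM (log2 1.58, SE 0.12, adjusted p = 1.57e-09). FLT3LG (log2 -0.97, SE 0.29, adjusted p = 0.00829) lost its call without ITGB4-high replicate 1, with adjusted p = 0.0673. VEGFA (log2 -0.21, SE 0.06, adjusted p = 0.00874) lost its call without ITGB4-high replicate 2 and without ITGB4-low replicate 3, with adjusted p up to 0.0908.

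In lung-recovered against ITGB4-low cells 2 of these genes rose and 2 fell (median 0.10). IL34, a ligand of CSF1R, rose from 0.103 ± 0.0951 to 1.19 ± 0.254 CPM (log2 3.45, SE 0.50, adjusted p = 2.09e-05) and CSF1 by 0.33 (SE 0.06, adjusted p = 0.000125). The IL34 mean in ITGB4-low cells lies below the level of 3 counts, 0.121 to 0.146 CPM in those libraries. KITLG fell by 0.47 (SE 0.09, adjusted p = 0.000302), and KDR, a VEGF receptor, by 0.71 (SE 0.18, adjusted p = 0.00443). In lung-recovered against ITGB4-high cells 5 rose and 2 fell (median 0.74), and the total of 7 became 4 without ITGB4-high replicate 1. KITLG (log2 1.76, SE 0.12, adjusted p = 2.87e-10) and IL34 (log2 2.48, SE 0.48, adjusted p = 0.000214) were higher. KDR (log2 -0.48, SE 0.20, adjusted p = 0.0496) lost its call in 10 of the 16 alternatives, with adjusted p up to 0.343. FLT3LG (log2 -0.88, SE 0.29, adjusted p = 0.0141) lost it without ITGB4-high replicate 1 and without lung-recovered replicate 1, with adjusted p up to 0.100.

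**Figure D4:**
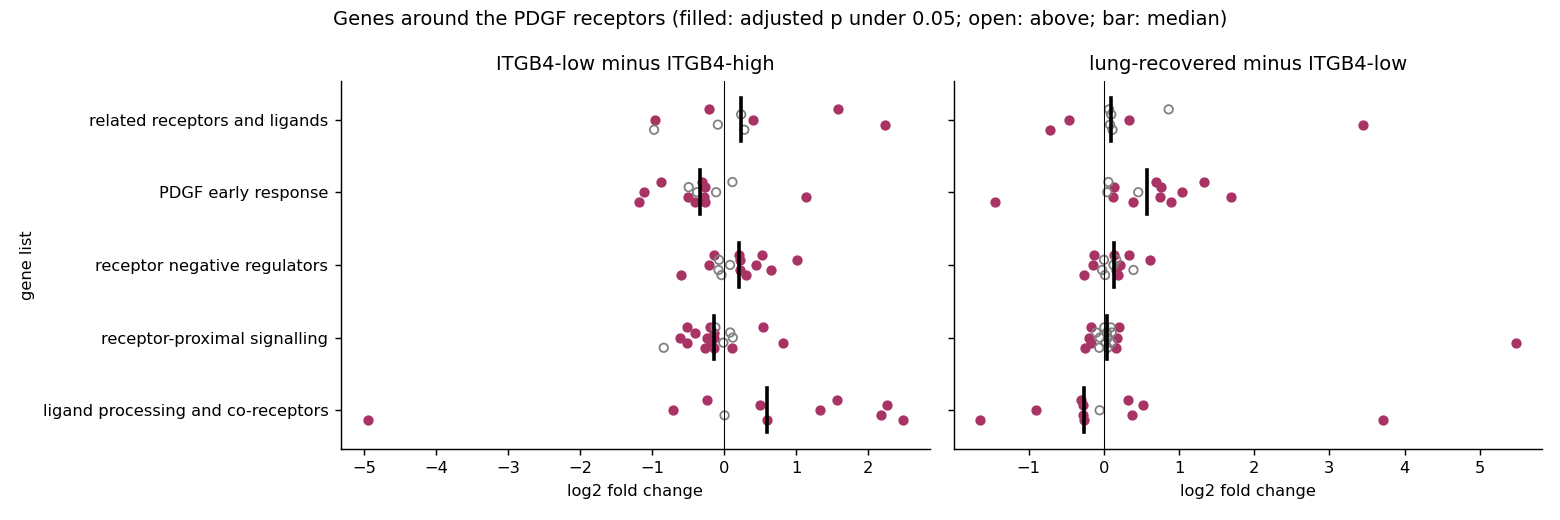
Log2 fold change (x axis) of each tested gene in the 5 gene lists (y axis) for ITGB4-low minus ITGB4-high (left) and lung-recovered minus ITGB4-low cells (right); filled points passed an adjusted p of 0.05 and black bars are medians. Early-response genes lie mostly below 0 on the left, with a median of -0.34, and above 0 on the right, with a median of 0.57; STAT5A is the point at 5.48.

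PDGFRA and PDGFRB are themselves markers of fibroblasts and pericytes, so the other markers of these cells are given beside them. The 13 fibroblast markers other than PDGFRA summed to 32.4 to 37.1 CPM in ITGB4-high, 42.0 to 44.5 in ITGB4-low and 106 to 116 CPM in lung-recovered libraries. COL1A1 was the largest part of it in each group, with means of 28.1 ± 2.63, 30.7 ± 1.60 and 101 ± 5.22 CPM. Of the 14 markers, PDGFRA included, 6 were tested: 3 were higher and 2 lower in lung-recovered than in ITGB4-low cells, and 5 were higher and 1 lower than in ITGB4-high cells. Of all tested genes, 14.7% were higher and 15.4% lower in the former comparison, and 26.2% and 25.0% in the latter. COL3A1 had means of 0.154, 0.490 and 1.83 CPM in ITGB4-high, ITGB4-low and lung-recovered cells, and its highest group was that of PDGFRA and COL1A1. COL13A1 (0.248, 8.45 and 3.28 CPM) and SCARA5 (0.0572, 0.984 and 0.475 CPM) were highest in ITGB4-low cells, and DCN (5.86, 2.32 and 2.65 CPM) in ITGB4-high cells. COL1A2, LUM, DPT, MFAP5, COL14A1 and FAP had group means of at most 0.0961 CPM, and PI16 was at 0 in every library. This sum and PDGFRA were both highest in lung-recovered cells. Between the dish-grown groups they went opposite ways, with the sum higher and PDGFRA lower in ITGB4-low than in ITGB4-high cells. The part of fibroblast-marker expression in the PDGFRA result was not tested.

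The 9 pericyte markers other than PDGFRB summed to 75.0 to 77.1, 466 to 482 and 345 to 381 CPM, the group order of PDGFRB. CSPG4, MCAM, NOTCH3 and ABCC9 made up most of it, and HIGD1B and COX4I2 were at 0 in every library. Of the 10 markers, PDGFRB included, 8 were tested. In ITGB4-low against ITGB4-high cells 6 were higher and 2 did not pass, beside 28.6% of all genes higher. In lung-recovered against ITGB4-low cells 7 were lower and 1 did not pass, beside 15.4% lower. Against ITGB4-high cells 6 were higher, 1 was lower and 1 did not pass, beside 26.2% higher and 25.0% lower. Smooth muscle markers summed to 23.0 to 25.6, 31.2 to 43.5 and 20.2 to 21.0 CPM. Platelet and megakaryocyte markers, whose cells are the classic source of PDGF-B, reached at most 0.226 CPM, and PF4, PPBP, GP9, GP1BA and TUBB1 were at 0 throughout. Macrophage and myeloid markers summed to 3.39 to 4.49, 6.08 to 6.46 and 7.23 to 8.27 CPM, with AIF1 and TYROBP at 0 throughout. Endothelial markers summed to 3.23 to 3.96, 3.59 to 5.63 and 2.78 to 3.40 CPM, with CLDN5 at 0 throughout. Lung epithelial markers stayed between 0.777 and 1.33 CPM, with SFTPA1, SCGB1A1 and FOXJ1 at 0 throughout. Reads were aligned to the human genome, and the part of mouse lung RNA in the lung-recovered values was not tested.

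The genes whose log2 CPM followed each PDGF gene most closely over the 8 libraries were ranked by Pearson r, among 2944 or 2945 genes that varied by at least 1 log2 unit. With 3 groups that stand far apart, r mainly reflects the group means, and the libraries share groups. PDGFRA was most like SH3PXD2A (r = 0.996), which encodes the invadopodia scaffold TKS5 and had means of 28.3, 10.7 and 89.2 CPM in ITGB4-high, ITGB4-low and lung-recovered cells. TTC39B (r = 0.995) and MAP3K5, which encodes the stress kinase ASK1 (r = 0.994), came next. PDGFRB was most like EBF1 (r = 0.997), a transcription factor, with means of 2.84, 15.2 and 10.7 CPM, followed by CYB5D2 and by the collagen chaperone gene SERPINH1.

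PDGFA was most like ADGRE2 (r = 0.987), SEMA4B (r = 0.984) and ALX4 (r = 0.984). ALX4, a homeobox gene, was at 0 CPM in both dish-grown groups and at 1.29 CPM in lung-recovered cells. PDGFB was most like TMCO3 (r = 0.998), PLCG2 (r = 0.995), which encodes phospholipase C gamma 2, and TLN2 (r = 0.995), which encodes talin 2. PDGFC was most like HOMER2 (r = 0.999), the gelatinase gene MMP2 (r = 0.999) and ARNT2 (r = 0.998). MMP2 had means of 33.4, 231 and 150.0 CPM in the 3 groups. Between members, r was 0.99 for PDGFRB with PDGFC, 0.99 for PDGFB with PDGFC and 0.97 for PDGFRB with PDGFB. PDGFRA stood with PDGFA (r = 0.93) and apart from PDGFRB (r = -0.09), PDGFB (r = -0.25) and PDGFC (r = -0.14).

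Genes near the members were read out to see whether whole regions moved. Within 2 Mb of the PDGFRA start 17 other genes were tested, with a median log2 fold change of 0.03 in lung-recovered against ITGB4-low cells, 3 higher and 4 lower. Of all tested genes 14.7% were higher and 15.4% lower there. The nearest protein-coding genes tested were CHIC2 (log2 0.15, SE 0.08, adjusted p = 0.184) and LNX1 (log2 0.47, SE 0.14, adjusted p = 0.0148) on one side. On the other side KDR, given above, and SRD5A3 (log2 -0.54, SE 0.10, adjusted p = 0.000179) were lower. The PDGFRA value of 3.38 was larger than that of any of the 17. KIT, the sister receptor gene that lies between PDGFRA and KDR, was not tested at 0 counts.

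The same medians were 0.02 over 34 genes near PDGFRB, 0.09 over 30 near PDGFA, 0.05 over 64 near PDGFB, -0.16 over 11 near PDGFC and -0.06 over 15 near PDGFD. Near PDGFA 11 of 30 were higher and 1 lower, beside 14.7% and 15.4% of all tested genes. Among those higher were the flanking genes FAM20C (log2 0.59, SE 0.10, adjusted p = 7.15e-05), PRKAR1B (log2 0.46, SE 0.05, adjusted p = 8.77e-07) and DNAAF5 (log2 0.32, SE 0.05, adjusted p = 6.06e-05), beside 0.42 for PDGFA. FAM20C was at 2.05, PRKAR1B at -0.38 and DNAAF5 at -0.51 in ITGB4-low against ITGB4-high cells, where PDGFA was at -0.03. In lung-recovered against ITGB4-high cells, where PDGFA was at 0.40, they were at 2.64, 0.08 and -0.19. Near PDGFB in lung-recovered against ITGB4-low cells 17 of 64 were higher and 11 lower, beside the same 14.7% and 15.4%. Of its flanking genes, RPL3 (log2 0.13, adjusted p = 0.0701), CBX7 (log2 0.25, adjusted p = 0.109) and SYNGR1 (log2 0.42, adjusted p = 0.181) did not pass. APOBEC3G was higher (log2 1.30, SE 0.22, adjusted p = 0.00015), while PDGFB was lower. In ITGB4-low against ITGB4-high cells the medians were -0.06 near PDGFRA, 0.07 near PDGFRB, -0.14 near PDGFA, -0.11 near PDGFB, 0.25 near PDGFC and 0.57 near PDGFD. There 6 of the 11 genes near PDGFC were higher and 3 lower, beside 28.6% and 27.6% of all tested genes. Its flanking genes TDO2, CTSO, GLRB and FAM198B were at 0.22, 0.92, 0.73 and -2.54, beside 1.67 for PDGFC. Near PDGFRB 10 of 34 were higher and 9 lower. Its flanking genes TIGD6, HMGXB3, TCOF1 and RPS14 were at -0.22, -0.16, -0.54 and -0.66. In lung-recovered against ITGB4-low cells the PDGFC flanking genes were at -0.39, -0.16, -0.43 and 1.09, beside -0.35.

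**Figure D5:**
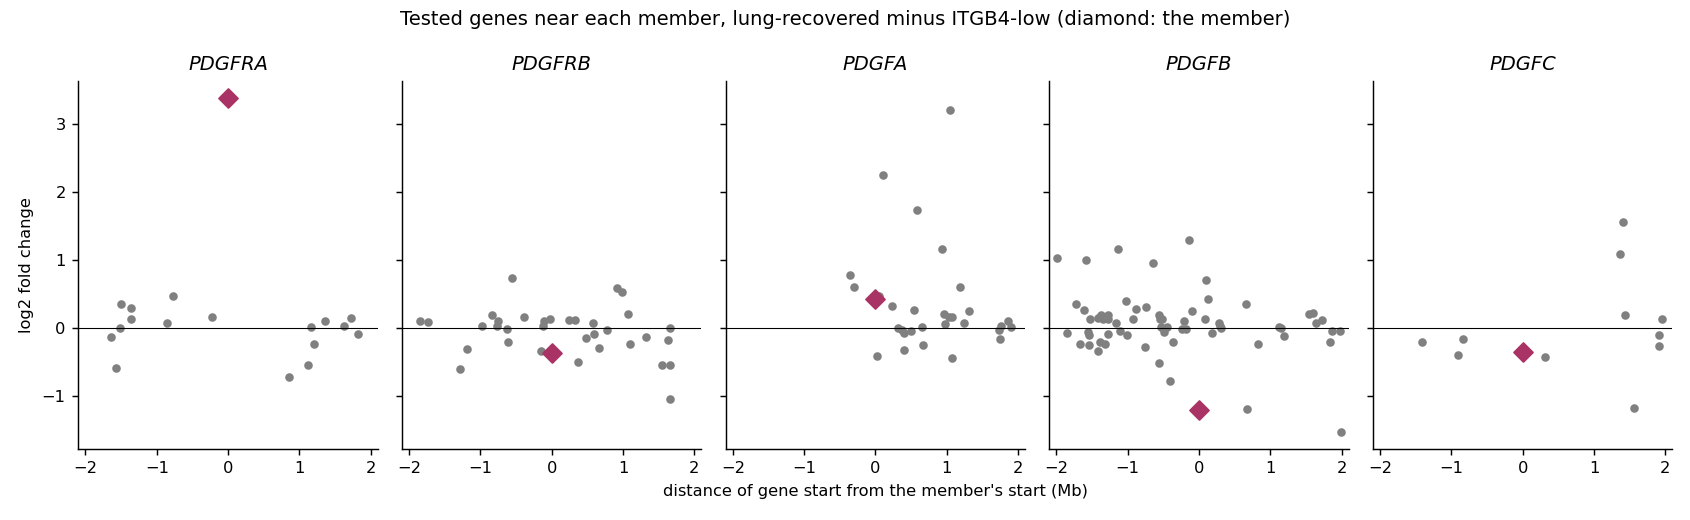
Log2 fold change of lung-recovered minus ITGB4-low cells (y axis) for tested genes within 2 Mb of each PDGF gene (grey points), by distance of the gene starts in Mb (x axis); the diamond is the PDGF gene. PDGFRA at 3.38 stands above all 17 of its neighbours, whereas PDGFA at 0.42 lies among its neighbours.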

How the data were processed

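The authors deposited a table of raw read counts per gene (counts, not normalized) for the 8 libraries. Poly(A) RNA was made into strand-marked libraries, per the labels' protocols, and aligned with STAR 2.7.1a to hg38, per the submitters' processing notes. Which program counted the reads, with which strand setting and annotation release, is not given in the sources used here. Identifiers were matched to GENCODE 29 for symbols and exon lengths (58216 of 58336; 120 did not match). Counts were analysed with edgeR 4.0.16 in R 4.3.3 (limma 3.58.1, DESeq2 1.42.0 for alternatives): filterByExpr, TMM, quasi-likelihood F test in 1 fit of all 8 libraries with a term per group, Benjamini-Hochberg over 15220 genes, threshold 0.05. SE was taken as the absolute log2 fold change over the root of F. Within groups, chi-square over its degrees of freedom was 1.57 to 6.13, above sampling noise, and each library counts as 1 replicate. No batch is named in the labels.

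The members and lists were chosen with earlier results of these data known. All members are named. Per list and comparison, up to 2 risen and 2 fallen genes are named by size, with a group mean of at least 1 CPM. The 3 genes most like each tested member (r of log2 CPM, prior count 0.5) are named too. So are up to 2 nearest tested protein-coding genes on each side of each tested member. The test was checked on simulated data.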

Additional observations from a re-analysis of the deposited data

How the results depend on the processing

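All 15 fold changes of the 5 tested members kept their direction and their side of the threshold in each of 16 alternatives (another filter or none, upper-quartile or DESeq2 scaling, DESeq2, limma-voom, the replicate block, a fit of the 2 groups alone, and leaving out each library). Members called stayed at 4, 5 and 5. The lung-recovered minus ITGB4-low value of PDGFRA ranged from 3.35 to 3.42 and that of PDGFRB from -0.46 to -0.31. List genes called in all were 50 (42 to 50), 42 (33 to 44) and 44 (35 to 45). With PDGFRA per unshared exon base, an alternative chosen after seeing the data, the mean receptor ratio was 2.64, 0.223 and 2.97 in ITGB4-high, ITGB4-low and lung-recovered cells. These means lie above all library ratios per annotated exon length in their groups, 2.00 and 2.45, 0.176 to 0.207 and 2.31 to 2.61. PDGFRB was still the more abundant receptor transcript in ITGB4-low cells only. Same-numbered libraries did not deviate together (r from -0.06 to 0.04); with the replicate block, 4, 5 and 5 members and 46, 39 and 41 list genes were called. PDGFB at 18 to 29 counts in ITGB4-high libraries and PDGFD at 0 are limited by depth, and so are PLAU and IL34 in ITGB4-low libraries.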
